A study of Drosophila melanogaster with 4 samples.

Results

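GAGA factor (GAF) bound many places of the fly genome as rows of closely spaced clusters, and 442 such densely arrayed clusters on the autosomal arms 2L, 3L and 3R are described here. A cluster is a region that the authors called significantly enriched, with a score above 0. A densely arrayed, or dense, cluster was one of the combined list that was narrower than 5000 bp, had its midpoint more than 2 Mb from the centromere end of its arm, and had its next cluster within 5000 bp on both sides. The combined list held 6474 clusters, of which 3242 met the conditions on arm, width and distance from the centromere and are called eligible. The 442 dense clusters were 13.6% of these. Members were chosen by measured values of the combined list, namely positions, widths, gaps and the sign of the score, so the values below describe them and no test was applied to them.

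The libraries were made by chromatin immunoprecipitation and sequencing (ChIP-seq) with an antibody to GAF from whole embryos of Drosophila melanogaster, strain Oregon-R, genotype wild type, at 14 to 16 hours of development. There were 2 GAF ChIP replicates and 2 inputs, which are chromatin sequenced without immunoprecipitation; the inputs were not analysed here. No treatment or mutant was part of the series, and the whole embryos mix all cell types of this stage. Nothing in the labels ties the replicates to separate collections of embryos, and their spread may be technical.

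GAF, the product of the gene Trl, is a zinc-finger protein that recognises GA-rich DNA and also carries a BTB domain, through which GAF molecules associate with each other. It is known for keeping promoters free of nucleosomes, for its link to paused RNA polymerase II at heat shock genes, and for its presence at Polycomb response elements and chromatin boundaries. Binding at neighbouring GA-rich stretches and contacts between bound sites are established properties of the protein. The coordinates given here are of FlyBase release 5. The gene table at hand is of release 6, so clusters are named by position, without genes or sequence.

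Most arrays were short. An array was a run of consecutive clusters with every gap at most 5000 bp and at least 1 dense cluster inside. The 442 dense clusters lay in 247 arrays with 970 clusters in all. The rest of the arrays consisted of 458 narrow clusters with a near neighbour on 1 side and 70 clusters of 5000 bp or wider. Of the arrays, 131 had 3 clusters, the fewest possible, with 1 dense cluster in the middle. A further 60 had 4 clusters, 29 had 5, and 27 had 6 or more. The 56 arrays of 5 or more clusters held 196 of the dense clusters. Long arrays were fewer in the replicate lists, where replicate 1 had 15 and replicate 2 had 17 arrays of 6 or more. Each replicate list had 39 arrays of 5 or more, with 120 dense clusters in replicate 1 and 132 in replicate 2. The dense arrangement was therefore in most places a row of 3 or 4 clusters, and long rows were few.

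**Figure D1:**
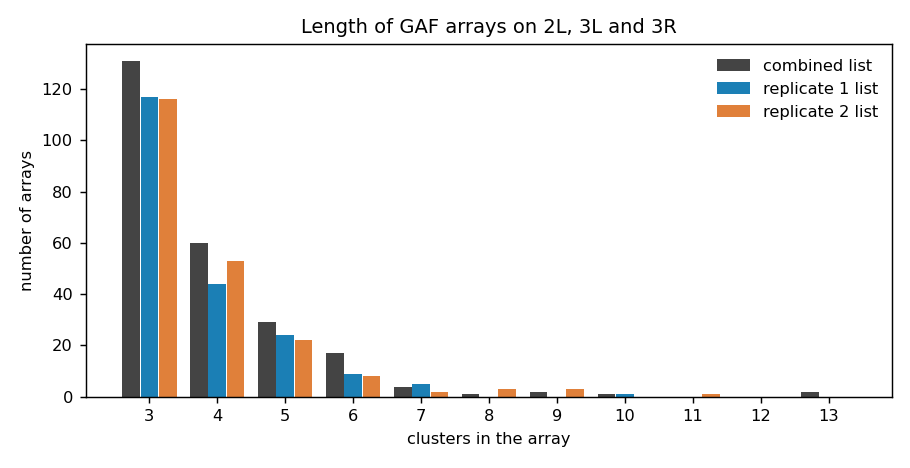
The number of arrays (vertical axis) by the number of clusters in the array (horizontal axis), for the combined list and for each replicate list under the same rule. Arrays of 3 clusters were the most frequent in all 3 lists, with 131 in the combined list, 117 in replicate 1 and 116 in replicate 2.

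Arrays spanned 6243 to 69153 bp, with a median of 14332 bp and quartiles of 11504 and 20515 bp. Clusters covered a median of 64.8% of an array's span. Together the arrays took up 4.20 Mb, or 6.04% of the sequence of the 3 arms outside the centromere ends. The 723 gaps inside them had a median of 1785 bp and quartiles of 691 and 3329.5 bp. From midpoint to midpoint, neighbouring clusters of an array lay a median of 4705.5 bp apart.

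Of the 2 gaps of a dense cluster, the nearer one had a median of 766 bp and the farther one a median of 2863.5 bp. The nearer gap was at most 500 bp in 153 of the 442 dense clusters, while both gaps were at most 1000 bp in 53 and at most 2500 bp in 178. Gaps of 1000 bp or less on both sides were therefore the exception. A cluster of 5000 bp or wider, which cannot be a member itself, was next to 78 of the 442 and was part of 57 of the 247 arrays.

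At the limits of the rule, the dense cluster with the largest gap was on 3R from 19162292 to 19163309, with its farther neighbour 4999 bp away. The nearest cluster left out was on 2L from 8000666 to 8002655, with a gap of 5001 bp on one side and 3646 bp on the other. The widest dense cluster covered 4937 bp of 3R from 17440906 to 17445842, and the next one out covered 5039 bp of 3R from 12888800 to 12893838. The dense cluster nearest to a centromere limit was on 3L from 22458395 to 22460870, 2.08 Mb from the end of that arm. On 3R a cluster from 1832291 to 1834830, 1.83 Mb from the start of the arm, was the nearest one left out. The width limit left out 48 clusters that had near neighbours on both sides, and the centromere limit left out 30.

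The longest arrays by number of clusters were both on 3L and had 13 clusters each. The first ran from 17549383 to 17613709, a span of 64.3 kb, with 10 dense clusters and 1 of 6224 bp. Its strongest dense cluster, from 17555590 to 17558239, scored 4.45 in replicate 1 and 4.26 in replicate 2 (4.35 ± 0.14, SD, n = 2). The weakest dense cluster of the same array began at 17576968, was 1348 bp wide, had a combined score of 0.297 and was overlapped by no cluster of either replicate. Another began at 17590107 and scored 0.630 and 0.552 in replicates 1 and 2. Strong and weak clusters stood side by side in the array, and its median combined score was 3.08.

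The second array on 3L, from 7793995 to 7863147, had the longest span of any array, 69.2 kb, with 9 dense clusters and 3 of 5000 bp or wider. Its strongest dense cluster lay near one edge, from 7796704 to 7799928, and scored 4.37 in replicate 1 and 4.21 in replicate 2 (4.29 ± 0.11, SD, n = 2). Further along, the one that began at 7846553 scored 3.55 and 3.86. Between these 2 peaks the dense cluster that began at 7811124 scored 0.154 in replicate 1 and had no counterpart in replicate 2, and the one that began at 7833317 scored 0.229 in replicate 2 and had none in replicate 1. Only 9 of the 13 clusters of this array were overlapped by both replicates, against 11 of 13 in the first array.

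The third was on 3R from 17405281 to 17468640, with 10 clusters over 63.4 kb, 6 of them dense. It held the widest dense cluster, which scored 3.37 in replicate 1 and 3.57 in replicate 2, and next to it a dense cluster that began at 17446512 and scored 1.43 and 1.07. The array also held a single combined cluster of 15964 bp where replicate 1 had 2 clusters. On 2L the longest array ran from 1627206 to 1673062, with 9 clusters over 45.9 kb. Its scores were highest near the middle, at 4.17 and 4.09 in replicates 1 and 2 for the dense cluster that began at 1647752, and the clusters at its 2 ends had combined scores of 0.517 and 0.231. The fifth, on 3R from 2224484 to 2260678, also had 9 clusters but was weak, with a median combined score of 0.396 and a highest one of 2.76 in a cluster of 10287 bp.

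**Figure D2:**
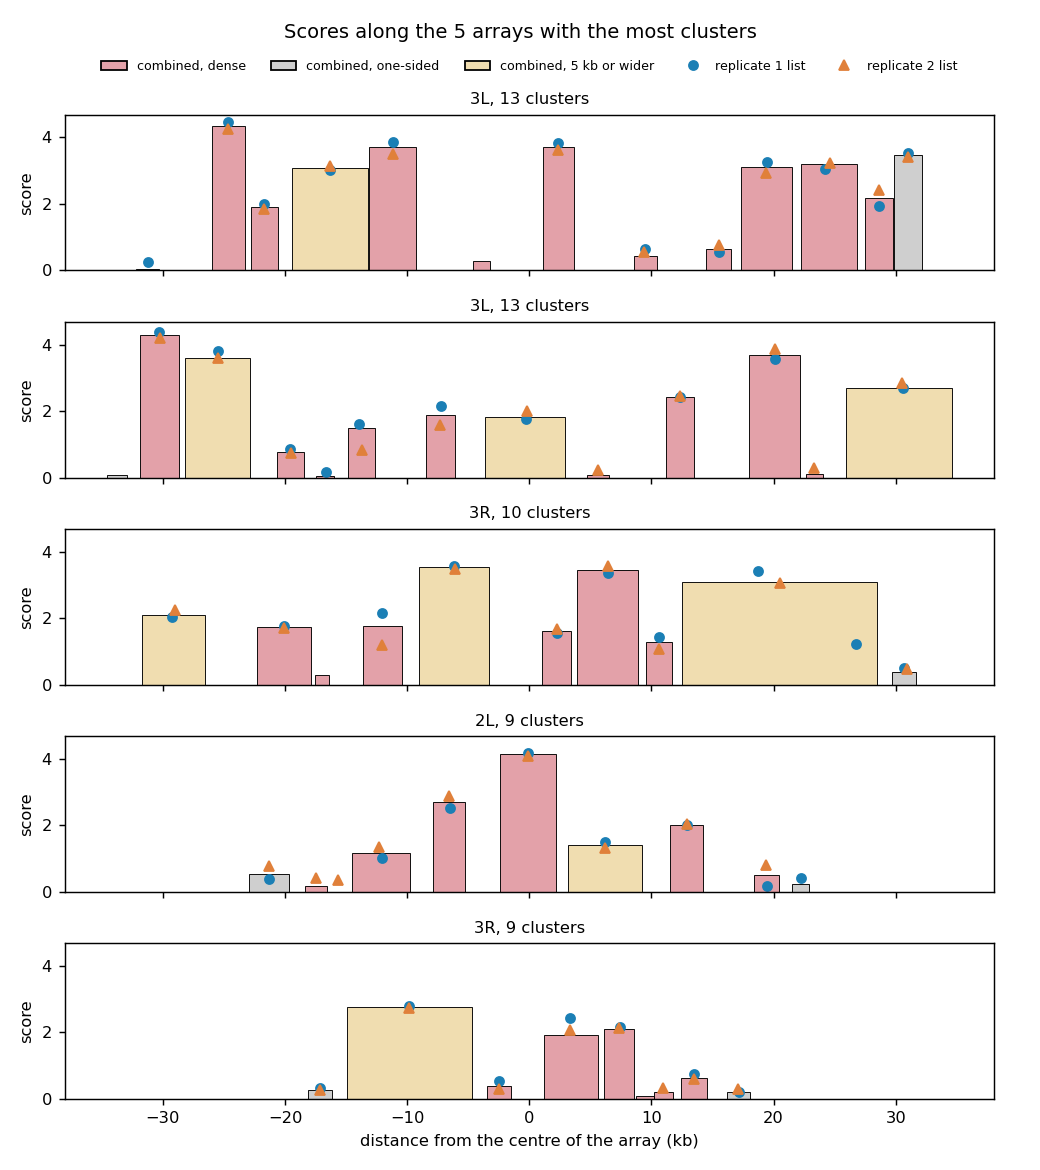
Scores (vertical axis, the authors' units) along the 5 arrays with the most clusters, by distance from the array's centre in kb. Bars are combined clusters drawn to their width and coloured by kind, and points are the clusters of each replicate list. Strong and weak clusters stood side by side in these arrays, with dense clusters from 0.0467 to 4.34.

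Every arm held arrays, with 61 on 2L, 84 on 3L and 102 on 3R. Dense clusters numbered 102, 161 and 179 on these arms. They made up 11.4% of the 897 eligible clusters of 2L (interval 9.37 to 13.6%), 14.5% of the 1107 of 3L (12.5 to 16.8%) and 14.5% of the 1238 of 3R (12.5 to 16.5%). These and all intervals below are exact (Clopper-Pearson) 95% binomial intervals, which cover counting error only and treat clusters as independent, which neighbours are not. The replicate lists gave the same order for 2L, with 9.10% and 9.18% there, against 12.1% and 12.9% on 3L and 11.7% and 12.6% on 3R in replicates 1 and 2. The share of 2L lay below the others in both replicates, but the intervals of the 3 arms overlapped. A lower share on 2L went with fewer eligible clusters per Mb, 42.7 there against 49.1 on 3L and 47.8 on 3R. The part of overall density in the shares was not tested.

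Along the arms the dense clusters were spread widely, with some crowded stretches. Of 69 windows of 1 Mb, 3 had no dense cluster, the median was 6, and 13 windows with 10 or more held 163 of the dense clusters. The fullest was 3L from 17 to 18 Mb, with 19 dense clusters among 65 eligible ones, where the rule found 12 in replicate 1 and 14 in replicate 2. It contains the first array described above. The next was 3R from 5 to 6 Mb, with 17 of 64, and 11 and 13 in the replicates. After it came 3R from 2 to 3 Mb, with 15 of 53, and 11 and 12 in the replicates.

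The share of dense clusters along the arm had a different order on each arm. With the eligible stretch of each arm divided into 3 equal parts, the share of dense clusters on 2L was 7.89% on the centromere side (21 of 266), 11.4% in the middle and 14.2% on the telomere side (47 of 332). On 3L the lowest share was on the telomere side, with 16.7% (64 of 383), 18.1% and 8.61% (31 of 360) in the same order. On 3R the values were 16.7%, 13.3% and 13.2%, with intervals that overlapped throughout. The intervals of the 2 outer parts of 2L overlapped as well. No test was made of these differences.

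Dense clusters ranged from weak to strong. Their combined scores ran from 0.0324 to 4.55, inside the range of 9.79e-05 to 5.22 of all eligible clusters, with a median of 1.16 and quartiles of 0.394 and 2.26. Isolated clusters, the 1441 eligible ones with no neighbour within 5000 bp, had a median of 1.06 and quartiles of 0.360 and 2.08. The 1359 one-sided clusters, with 1 near neighbour, had a median of 1.03. The median of dense clusters was thus 0.0998 score units above that of isolated ones. In the replicates, clusters matched 1 to 1 had medians of 1.48 (dense) and 1.38 (isolated) in replicate 1, and 1.55 and 1.45 in replicate 2.

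The size and the direction of this difference varied with the rule. It was 0.319 with a gap limit of 2500 bp, 0.192 among clusters overlapped by both replicates and 0.188 with no width limit. From the replicate 1 list alone, without replicate 2, it was 0.176, and from the replicate 2 list alone it was 0.148. With a gap limit of 10000 bp the dense median minus the isolated one was -0.133, and with distances taken between midpoints, a setting added after the data were seen, it was -0.178. The cause of these changes was not tested. The direction also differed between arms. On 2L dense clusters had a median of 0.695 against 1.10 for isolated ones, on 3L 1.32 against 0.980, and on 3R 1.08 against 1.10. The rule applied to the replicate lists repeated the excess on 3L, at 1.74 against 1.19 in replicate 1 and 1.58 against 1.24 in replicate 2. The deficit on 2L appeared in replicate 1 (1.10 against 1.36) and not in replicate 2 (1.35 against 1.32).

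**Figure D3:**
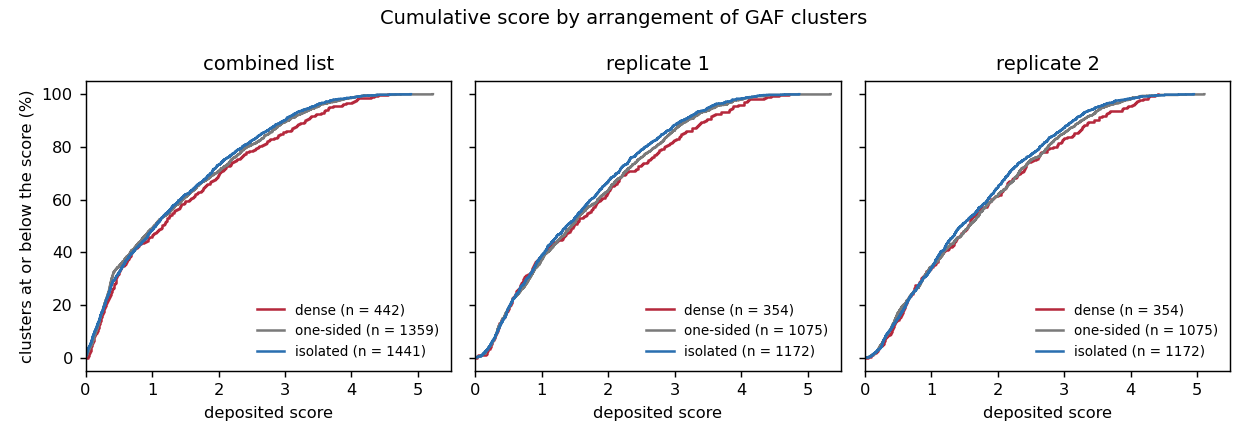
The cumulative percent of clusters (vertical axis) at or below each deposited score (horizontal axis), for dense, one-sided and isolated eligible clusters in the combined list and, for clusters matched 1 to 1, in each replicate. The 3 curves run close together, with combined medians of 1.16, 1.03 and 1.06.

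Among the strongest dense clusters was a neighbouring pair on 3R. The one from 8333509 to 8335967 scored 4.72 in replicate 1 and 4.42 in replicate 2 (4.57 ± 0.22, SD, n = 2), and the one from 8330228 to 8332762 scored 4.35 and 4.36 (4.36 ± 0.01). They belonged to the same array of 4 clusters and were 746 bp apart. Also on 3R, the cluster from 2932142 to 2936812 scored 4.56 and 4.28 (4.42 ± 0.20), in an array of 6. On 3L the cluster from 10848340 to 10851987 scored 4.52 and 4.25 (4.39 ± 0.19), also in an array of 6, with gaps of 90 and 252 bp on its sides. The remaining 2 of the 6 strongest were the top clusters of the arrays of 13 on 3L. These 6 means lay within 0.280 score units of each other, with replicate SDs of up to 0.217, so their order is not firm.

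The 3 weakest dense clusters were seen in 1 replicate each. The lowest, on 3R from 22907273 to 22909085, had a combined score of 0.0324, and scored 0.213 in replicate 1 with no counterpart in replicate 2. On 3L the cluster from 21197869 to 21199376 (combined score 0.0359) scored 0.173 in replicate 2 alone, and the one from 21046340 to 21047783 (0.0384) scored 0.179 in replicate 1 alone. In each of these the combined score was below that of the replicate in which the cluster was called. The next weakest, which began at 2937903 on 3R (combined score 0.0466), had a cluster in both replicates, at 0.172 and 0.113.

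Strong and weak clusters were mixed within arrays. The difference between the highest and lowest combined score of an array had a median of 2.24 and ran from 0.0984 to 4.61. Neighbours inside arrays differed by a median of 1.17 score units (723 pairs), beside 1.04 for neighbours more than 5000 bp apart (2229 pairs). For dense clusters matched 1 to 1 the within-cluster SD over the 2 replicates was 0.209 (354 clusters). An SD is another measure than these median differences, so their sizes are not directly comparable. Across the 723 pairs Spearman's rho of the 2 scores was -0.00515, and across the 2229 pairs it was 0.00479, both as descriptions, since pairs share clusters and libraries. The ranks of neighbouring scores were thus nearly unrelated, inside arrays and outside.

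Seen singly, a dense cluster scored above both of its neighbours in 140 cases (31.7%), below both in 161 (36.4%) and between them in 141 (31.9%). The eligible clusters were also divided by score into 4 equal groups. Of the 100 dense clusters in the lowest group, 53 (53.0%) had a neighbour with a score in the range of the highest group, against 54.5% over all 442. Of the 120 dense clusters of the highest group, 73 (60.8%) had one. The strongest cluster of the array was dense in 97 of the 247 arrays, one-sided in 120 and 5000 bp or wider in 30. One-sided clusters were also the most numerous kind in these arrays, and the counts are not adjusted for the number of each kind. By array length, the median combined score of dense clusters was 1.13 in arrays of 3, 1.15 in arrays of 4 and 1.17 in longer ones.

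Dense clusters were typically about as wide as others, with a median of 2275 bp and quartiles of 1990 and 3085 bp, against 2178 bp and quartiles of 1978 and 2694 bp for isolated ones. With the eligible clusters divided by width into 4 groups of about equal size, 138 of the 809 in the widest group were dense (17.1%, interval 14.5 to 19.8%) against 92 of the 808 in the second narrowest (11.4%, interval 9.28 to 13.8%). Width was itself part of the rule, and gaps ran from edge to edge, so these intervals are no test of a difference. Over all eligible clusters 13.6% were dense, and 2 of the 4 groups alone do not show a trend with width. With distances between midpoints, chosen after seeing the data, the median width of dense clusters was 2184 bp. The narrowest dense cluster, on 2L from 3100462 to 3101463, covered 1002 bp, scored 0.371 and was in neither replicate list. Within each width group the median scores of dense and isolated clusters were close, at 0.202 and 0.178 in the narrowest, 0.655 and 0.772 in the second, 1.93 and 1.99 in the third, and 2.36 and 2.36 in the widest.

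Both replicates had a cluster at most dense clusters. An overlap was at least 1 shared bp. The combined list was made from these 2 replicates, so neither is independent of the choice of dense clusters. Their overlap is therefore no independent support. Both replicates overlapped 365 of the 442 (82.6%, interval 78.7 to 86.0%), beside 81.2% of all eligible clusters and 81.8% of isolated ones. Replicate 1 overlapped 379 (85.7%, beside 85.6% of all eligible clusters) and replicate 2 overlapped 392 (88.7%, beside 87.3%). Replicate 1 alone had 14, replicate 2 alone had 27, and 36 dense clusters were in neither list (8.14%, interval 5.77 to 11.1%). Of those 36, 24 were narrower than 1301 bp, the smallest width in either replicate list. Support at dense clusters, and the share of them in neither list, were near those of eligible clusters as a whole.

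Support was higher in the higher score groups, in dense and isolated clusters alike. The combined list and its scores were made from these 2 replicates, so this rise is no independent result. In the lowest of the 4 score groups, up to 0.358, both replicates overlapped 39.0% of the dense clusters (interval 29.4 to 49.3%) and 38.0% of the isolated ones. In the second group the shares were 86.4% and 89.0%, in the third 111 of 112 and 380 of 380, and in the highest 120 of 120 and 339 of 339. The 365 dense clusters of both replicates had medians of 1.49 in combined score and 2454 bp in width. The medians were 0.148 and 1556 bp where 1 replicate had a cluster, and 0.298 and 1223.5 bp where neither did.

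**Figure D4:**
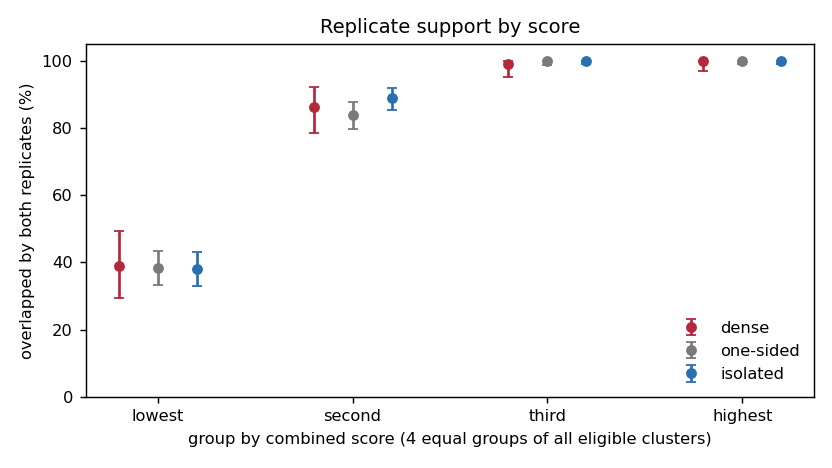
The percent of clusters overlapped by both replicates (vertical axis) in 4 equal groups of all eligible clusters by combined score (horizontal axis), for dense, one-sided and isolated clusters. Bars are exact 95% binomial intervals. Support of dense clusters went from 39.0% in the lowest group to 120 of 120 in the highest, and the intervals of the 3 kinds overlapped in every group.

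Where a dense cluster was matched 1 to 1 in both replicates, which held for 354 of them, its scores were close. Spearman's rho between replicates was 0.957 and Pearson's r 0.969, given as descriptions across clusters of the same 2 libraries. Replicate 2 scored higher at 207 of the 354 (58.5%), beside 61.1% of all eligible clusters so matched, and its score minus that of replicate 1 had a median of 0.0323 and an SD of 0.292.

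**Figure D5:**
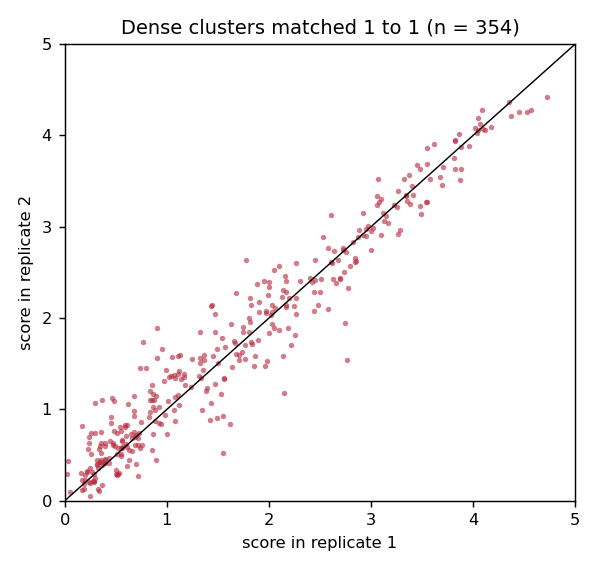
The score of each of the 354 dense clusters matched 1 to 1 in replicate 1 (horizontal axis) and in replicate 2 (vertical axis), with the line of equal scores. The points follow the line, and replicate 2 minus replicate 1 had an SD of 0.292.

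Fewer dense clusters were dense again in a replicate than were overlapped by one. Being dense again also needs a near cluster on both sides, so by the rule its share cannot exceed the share overlapped. Here too the replicates are not independent of the combined list. When the rule was applied to each replicate list alone, 323 of the 2898 eligible clusters of replicate 1 were dense (11.1%) and 348 of the 2959 of replicate 2 (11.8%). Of the 442 dense clusters, 292 overlapped a dense cluster of replicate 1 (66.1%, interval 61.4 to 70.5%) and 313 one of replicate 2 (70.8%, interval 66.3 to 75.0%). In both lists 252 were dense again (57.0%) and in neither 89 (20.1%). The former had a median combined score of 1.59 and the latter one of 0.385. Conversely, 90.7% of the dense clusters of replicate 1 and 90.5% of those of replicate 2 overlapped a member. The combined list was made from these replicates and held more clusters on 2L, 3L and 3R, 3702 against 3277 and 3340. High shares are therefore favoured by how the list was made.

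Most members that were not dense again still had a cluster of their own. Of the 150 members not dense in replicate 1, 63 had no cluster there, 86 had their own cluster but without a near neighbour on both sides or with a width of 5000 bp or more, and 1 lay in a replicate cluster that spanned several combined ones. In replicate 2 the 129 divided into 50, 74 and 5. At the level of arrays, both replicate lists had a dense cluster in 164 of the 247 (66.4%, interval 60.1 to 72.3%) and neither in 33 (13.4%). This held for 69 of the 131 arrays of 3 clusters (52.7%) and for 48 of the 56 arrays of 5 or more (85.7%), where more dense clusters can meet the condition. Every cluster was overlapped by both replicates in 119 of the 247 arrays.

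Few gaps were closed in a replicate. A single replicate cluster covered the whole gap, so that the replicate had 1 cluster where the combined list had 2, in 3 of the 723 array gaps in replicate 1 and in 5 in replicate 2, or 7 in either (0.968%, interval 0.390 to 1.98%). The widest such gap was 254 bp. No gap above 1000 bp, of 480, was bridged, which allows a share of up to 0.766% by the exact interval.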

How the data were processed

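The members and the lists of results were chosen with earlier results of these data known. The analysis used 3 region lists deposited by the authors, 1 for each GAF ChIP replicate and 1 combined list. Reads were aligned with Bowtie 0.12.7, per the submitters' processing notes, and coordinates are on FlyBase release 5, per the file headers. The program that called the regions, its thresholds and the way the replicates were combined are not stated by any source used here. Each region has a signed score deposited by the authors, above 0 in enriched and below 0 in depleted regions. Its scale is not stated, so only ranks, medians and differences were taken. The deposited starts and ends gave widths and gaps (next start minus end minus 1). The lists hold no read counts, so the depth is unknown.

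Clusters were sorted by their gaps and compared by overlap of at least 1 bp, in Python 3.11.15 with pandas 2.3.3 and scipy 1.17.1. A cluster was matched 1 to 1 where it and a replicate cluster overlapped no other. Regions named in the text are the 5 arrays with most clusters, the array of longest span on each arm, the 6 strongest members matched 1 to 1, the 3 weakest, the narrowest and widest, those at each limit, and the 3 fullest windows of 1 Mb. Sorting by gap was tested on a simulated layout of 4778 clusters, where all 1565 planted members were found. Alternatives changed the gap, width, score and centromere limits, the list and the overlap. The planned count of GA repeats needs a release 5 genome and was not computed.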

Additional observations from a re-analysis of the deposited data

Results flagged for a closer look

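Regions called depleted, with a score below 0, take no part in the comparisons of clusters. On 2L, 3L and 3R the combined list holds 137 of them, and 2 lay inside arrays, with scores of -0.0186 and -0.0123. Both lay on a cluster that replicate 1 calls enriched and on none of replicate 2. These 2 regions do not show whether such an overlap is particular to arrays. With regions below 0 kept as neighbours, the number of dense clusters was 461 against 442.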

How the results depend on the processing

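The number of dense clusters and arrays depended most on the limits of the rule, and the score difference from isolated clusters depended on them in its sign. No test was made of any of these values. Results are given in the order dense clusters, arrays, clusters in the longest array, median span in bp, median score, dense minus isolated median score, median width in bp and median score difference of neighbours inside arrays; the values reported above are 442, 247, 13, 14332, 1.16, 0.0998, 2275 and 1.17. A gap limit of 2500 bp gave 178, 129, 8, 10950 (10.95 kb), 1.35, 0.319, 2416 and 1.25. A limit of 10000 bp gave 988, 407, 20, 21504, 1.03, -0.133, 2198 and 1.15. Midpoint distances of at most 5000 bp, chosen after seeing the data, gave 149, 118, 7, 10084.5, 0.922, -0.178, 2184 and 1.08. A score limit at the median of the list gave 92, 67, 8, 16599, 2.30, 0.119, 2929.5 and 0.945. Clusters overlapped by both replicates gave 272 dense clusters, a span of 15292, a score of 1.59, a difference of 0.192 and a width of 2477.5. Without a width limit the score was 1.31, the difference 0.188 and the width 2374. Without a centromere limit the score was 1.13 and the neighbour difference 1.15, and with one of 4 Mb they were 1.17 and 1.16. The share overlapped by both replicates, 82.6%, was 98.9% at or above the median score and 74.5% with midpoint distances. With a limit of 10000 bp in the replicate lists, 73.5% of the members were dense again in replicate 1 and 76.2% in replicate 2, against 66.1% and 70.8%. With 1 replicate left out, the rule gave 323 to 348 dense clusters, 200 to 208 arrays, at most 10 to 11 clusters in an array, spans of 14272.5 to 15082.5, scores of 1.46 to 1.48, differences of 0.148 to 0.176, widths of 2323 to 2336 and neighbour differences of 1.21 to 1.22. A stricter limit or list finds fewer clusters by construction; the cause of the other changes was not tested. No paired analysis was possible because no input list was analysed and no groups were compared. Depth is unknown, so weak clusters absent from a replicate list may have been missed there.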

Other observations

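By the same rule, with their own centromere ends, 2R had 173 dense clusters among 1057 eligible ones (16.4%, exact interval 14.2 to 18.7%) and X had 205 among 1163 (17.6%, interval 15.5 to 19.9%). These shares stand beside 13.6% for 2L, 3L and 3R together, and no test of the difference was made.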
